A study of Homo sapiens with 6 samples.

Results

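The mitosis and G2/M genes described here are 50 genes of 58051 in the deposited table, chosen by symbol: mitotic cyclins and kinases, and genes of the spindle checkpoint, kinetochore, spindle, condensin complex and cytokinesis, with the transcription factors FOXM1 and MYBL2. All 50 were found as a single row each, and all 50 passed the filter on low counts. RNA with poly(A) tails was sequenced from HEK293T, an established line of human embryonic kidney origin with the SV40 T-antigen. The cultures had been transiently transfected 48 hours earlier, with the empty vector pcDNA3.1- (3 libraries) or with the same vector carrying ppk1, a bacterial gene for an enzyme that makes polyphosphate chains (3 libraries). Both groups share the line, the transfection and the growth medium. The libraries are lettered B, C and D, and those of one letter are matched biological replicates. The share of cells that took up plasmid and the phase of the cells in the division cycle are not given in the sources used here, and the cultures held unsorted cells.

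Entry into mitosis is driven by CDK1 bound to cyclin B. WEE1 holds this kinase back by phosphorylating it, and the CDC25 phosphatases release it. Aurora and polo-like kinases then build the spindle, kinetochores attach chromosomes to it, and the spindle checkpoint delays the anaphase-promoting complex (APC/C), the ubiquitin ligase that ends mitosis, until attachment is complete. Transcripts of most of these genes are made mainly in the G2 phase and mitosis, under the MuvB complexes with MYBL2 and FOXM1, which act through a promoter element called CHR and nearby CCAAT boxes bound by NF-Y. The SV40 T-antigen of this line binds RB family proteins and p53, which restrain these genes in other cells. In libraries of whole cultures, fewer cells in G2 or mitosis and less RNA per cell cannot be told apart.

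Promoter windows in RefSeq (GRCh38.p14, 250 bases before to 50 after a start site) were held for 40 of the 50 genes, in 52 windows. The windows were not used to choose the genes. Most genes of this kind are controlled through CHR and CCAAT elements, as described above, so high shares here are not an independent finding. The CHR letters TTTGAA or TTCGAA, searched on both strands, were in 32 of the 52 windows (61.5%), against 16.4% of all 35116 windows of that length. CCAAT, on either strand, was in 35 (67.3%), against 34.6%. Both were in 24 (46.2%), against 6.38%. An E2F motif, TTCGCGC or TTGGCGC on either strand, was in 7 (13.5%), against 5.06%; CHR and CCAAT letters may overlap each other, as they do in CDCA8 and MKI67. Within the 60 bases before the start, the CHR letters lay in 38.5% of the members' windows and in 3.17% of all windows, a distance chosen after the matches were seen. A match of letters is a description and not a measured binding site.

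The 6 stretches below cover 100 bases before and 30 after an annotated start, 5′ to 3′ on the strand of the gene, with the CHR, CCAAT and E2F letters in capitals. HMMR, PRC1 and CDC25B are shown because their transcripts changed, and CCNB2, PLK1 and CDK1 because they carry the same letters and did not pass the test. CDC25B and CDK1 have several annotated starts, and the one with the CHR letters within the printed stretch is shown. In the longer promoter windows, both CDK1 starts had these letters.
HMMR, chr5:163460532-163460661, plus strand: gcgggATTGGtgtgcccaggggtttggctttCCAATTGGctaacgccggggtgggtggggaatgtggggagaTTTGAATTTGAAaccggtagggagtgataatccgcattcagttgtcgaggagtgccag
PRC1, chr15:90994506-90994635, minus strand: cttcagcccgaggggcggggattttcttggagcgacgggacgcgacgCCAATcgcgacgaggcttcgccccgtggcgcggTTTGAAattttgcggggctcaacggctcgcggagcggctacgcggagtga
CDC25B, chr20:3796210-3796339, plus strand: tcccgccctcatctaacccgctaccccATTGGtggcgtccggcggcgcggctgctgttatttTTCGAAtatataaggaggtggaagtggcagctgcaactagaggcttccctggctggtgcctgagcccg
CCNB2, chr15:59105046-59105175, plus strand: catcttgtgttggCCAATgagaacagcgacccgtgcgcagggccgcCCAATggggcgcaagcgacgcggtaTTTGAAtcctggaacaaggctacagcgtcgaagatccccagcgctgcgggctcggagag
PLK1, chr16:23678789-23678918, plus strand: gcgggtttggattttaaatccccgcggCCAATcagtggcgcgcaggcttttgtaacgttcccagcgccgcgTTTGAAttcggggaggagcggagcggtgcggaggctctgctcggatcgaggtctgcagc
CDK1, chr10:60778378-60778507, plus strand: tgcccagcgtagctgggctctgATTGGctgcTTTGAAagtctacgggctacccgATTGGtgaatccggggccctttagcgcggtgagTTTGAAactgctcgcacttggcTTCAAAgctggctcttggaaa
The CHR letters began 28 and 22 bases before the start in HMMR, where 2 copies stand in tandem, 20 bases before it in PRC1, 38 in CDC25B, and 29 in both CCNB2 and PLK1. In CDK1 they began 69 and 13 bases before the start, with a further match after it. CCNB2, PLK1 and CDK1 were chosen because they carry the letters, so their likeness to the changed genes follows from that choice.

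Before the results, 1 library has to be named. The empty vector library of replicate D had the highest level of all 6 libraries in 34 of the 50 genes (68%), against 26.5% of all tested genes. Summed over the 50 genes, the level was 7859, 8168 and 9036 CPM (counts scaled to library size, with TMM factors) in empty vector libraries B, C and D, and 7859, 8165 and 8070 CPM in ppk1 libraries B, C and D. The sums in the other 5 libraries lay between 7859 and 8168 CPM, so replicate D of the empty vector alone stood above them. Values without replicate D are given below for many of the genes in which this library stands out, but not for all.

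With ppk1, the fitted changes of nearly all mitotic transcripts were small. In edgeR's quasi-likelihood test with the replicate letter as a block, 1 of the 50 genes rose (CDC25B), 2 fell (HMMR and PRC1) and 47 did not pass a Benjamini-Hochberg adjusted p of 0.05. These are 6% of the members, and 9.08% of the 19574 genes tested were called, 4.04% higher and 5.04% lower. The share of members is near that background and is no result about the group. Log2 fold changes of the 47 ran from -0.21 to 0.22, and the 95% intervals of all 47 lay inside a 1.5-fold change in either direction, 34 of them inside a 1.2-fold change. These intervals lean on the dispersion shared across genes and can be narrower than the spread between pairs. INCENP, for example, had log2 pair differences of -0.31, 0.03 and 0.21 in B, C and D, with an interval of -0.19 to 0.13. The median log2 fold change of the 50 was -0.04, beside 0.01 over all tested genes, and the median absolute change was 0.09, the same as over the 7545 genes in the members' range of levels (26.7 to 593 CPM). Without the block 0 members were called (6 at an unadjusted p below 0.05), against 2.4% of all genes, and DESeq2 with the block called the same 3 genes, against 4.4%. Unadjusted p-values below 0.05 were seen for 10 members (20%) and for 23.8% of all genes. Without replicates B, C and D, in turn, 6, 1 and 3 were called, where 12.5%, 2.06% and 9.06% of all genes were. RLE scaling, upper-quartile scaling, no filter, a minimum mean of 50 counts and thinning gave 3, 4, 3, 3 and 3 called members, with 8.73%, 6.92%, 4.57%, 8.96% and 8.18% of all genes.

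**Figure D1:**
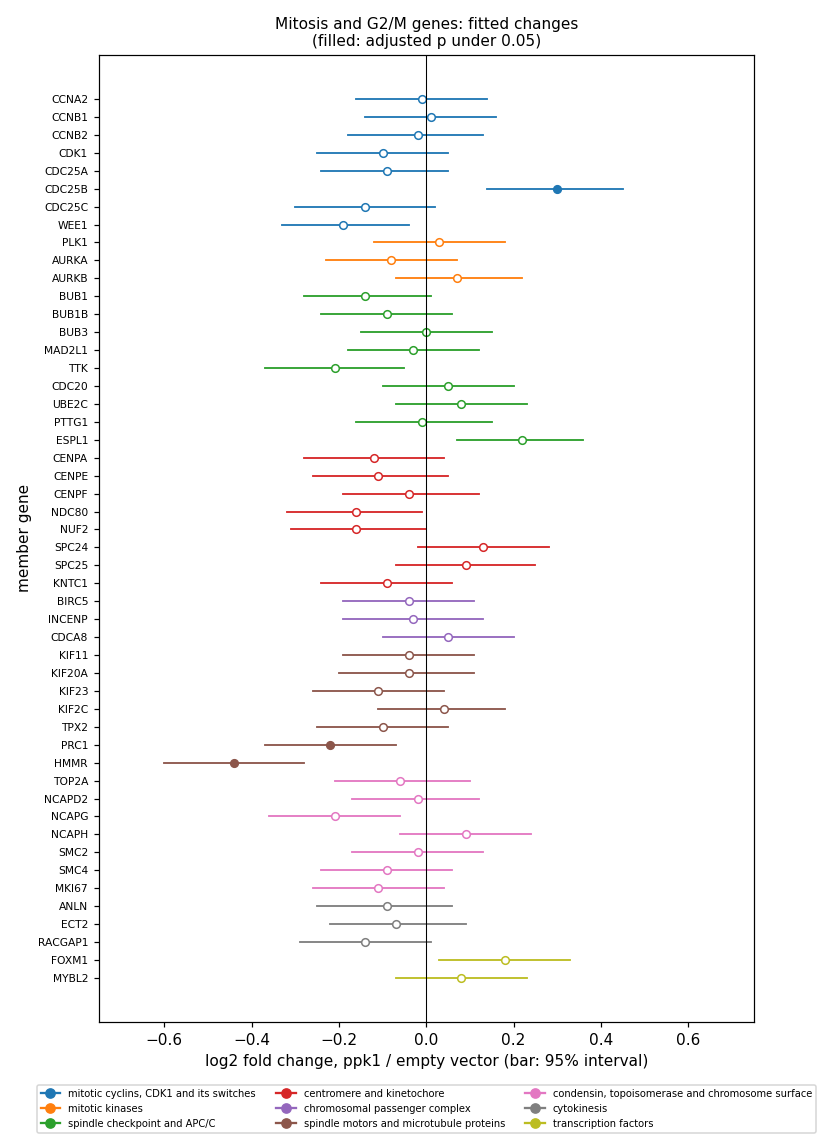
Fitted log2 fold changes (horizontal axis, ppk1 over empty vector) of the 50 genes (vertical axis), in order of role and coloured by it; bars are 95% intervals and filled points passed an adjusted p of 0.05. CDC25B at 0.30, PRC1 at -0.22 and HMMR at -0.44 are filled, and the other 47 lie between -0.21 and 0.22.

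HMMR (ENSG00000072571, chromosome 5) encodes the hyaluronan-mediated motility receptor, a microtubule-binding protein that helps to assemble and position the spindle. Its level was 106, 122 and 170 CPM in empty vector libraries B, C and D, and 95.4, 89.9 and 102 CPM in the ppk1 libraries. All 3 ppk1 libraries lay below all 3 controls, whose spread was wide. The means were 132 ± 33.3 and 95.8 ± 6.04 CPM (SD, n = 3 each), with a log2 fold change of -0.44 (SE 0.08) and an adjusted p of 1.5e-04 in edgeR's test. The pairs differed in size, at -0.15, -0.44 and -0.73 on the log2 scale in B, C and D. Without replicate D the log2 fold change was -0.31 with an edgeR adjusted p of 1.0e-03, and without the block the call was lost (-0.47, edgeR adjusted p 0.0908, the highest of 11 alternatives, whose lowest was 2.0e-08). Antisense HMMR-AS1 shares exon positions with it, and reads of both would mix if strand was not used in counting.

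PRC1 (ENSG00000198901, chromosome 15) bundles antiparallel microtubules in the central spindle, where the cleavage furrow forms. Levels of 328, 315 and 359 CPM in the controls stood above 293, 275 and 289 CPM with ppk1, with no overlap. The log2 fold change of -0.22 (SE 0.07) had an edgeR adjusted p of 0.0454, close to the threshold. Pairs B, C and D differed by -0.16, -0.20 and -0.31 on the log2 scale. It kept its direction under all 11 alternatives, but its edgeR adjusted p was 0.132 without the block, and 0.0531, 0.436 and 0.0652 without B, C and D, within a range of 0.0177 to 0.436 over all alternatives. Exons of PRC1-AS1 on the opposite strand and of AC068831.7 on the same strand overlap it, so its value is uncertain.

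CDC25B (ENSG00000101224, chromosome 20) is the phosphatase that starts the activation of CDK1 and cyclin B. It measured 71.2, 67.1 and 63.1 CPM in the controls and 79.9, 87.2 and 80.2 CPM with ppk1. Every ppk1 library was above every control. Its log2 fold change was 0.30 (SE 0.08, edgeR adjusted p 0.00719), with pair differences of 0.17, 0.38 and 0.35. The call was lost without the block (edgeR adjusted p 0.0579) and without replicate C (0.26 on the log2 scale, edgeR adjusted p 0.398, the highest of the alternatives, whose lowest was 0.00139).

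**Figure D2:**
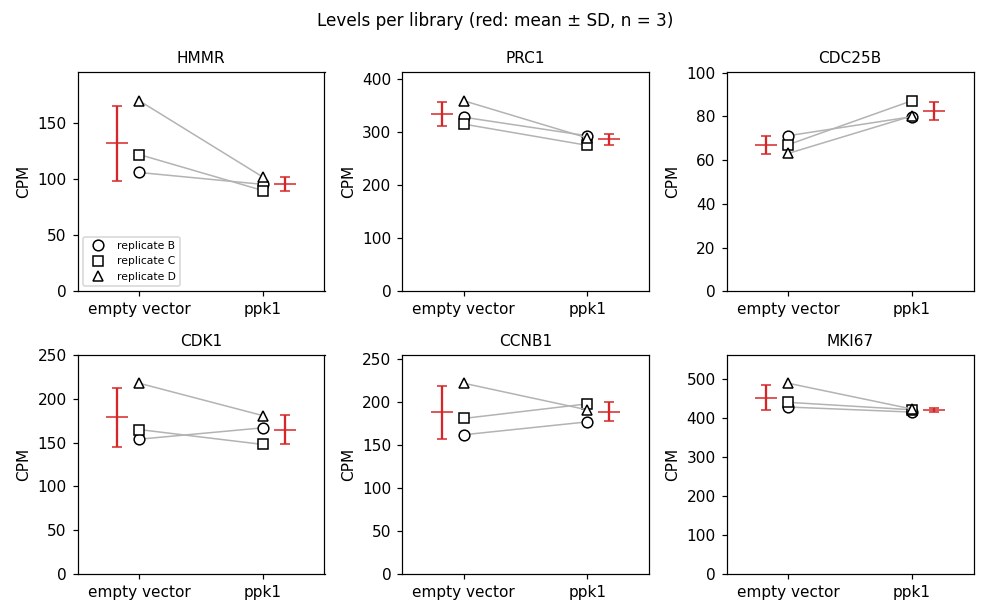
Levels in CPM (vertical axes, from 0) in the empty vector and ppk1 libraries of replicates B, C and D, joined by pair, with the mean ± SD (n = 3) in red. HMMR, PRC1, CDC25B and MKI67 do not overlap between groups, whereas CDK1 and CCNB1 do. CDK1, CCNB1 and MKI67 have their highest point in empty vector D, at 218, 222 and 489 CPM.

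Among the mitotic cyclins, CDK1 and its switches, CDC25B was the only 1 of 8 genes called, where 9.08% of all tested genes were. CDK1, the mitotic kinase, was at 154, 165 and 218 CPM in the controls and 167, 148 and 181 CPM with ppk1. CCNB1, the main cyclin B, was at 162, 181 and 222 against 177, 198 and 191 CPM. CCNA2, a cyclin of S phase and G2, was at 140, 150 and 165 against 141, 157 and 152 CPM. The groups overlapped for each of these genes. Their log2 fold changes were -0.10, 0.01 and -0.01, with 95% intervals from -0.25 to 0.05, from -0.14 to 0.16 and from -0.16 to 0.14. Without replicate D they were -0.04, 0.10 and 0.02, and none was called. CCNB2, the second B-type cyclin measured, had a log2 fold change of -0.02 (edgeR adjusted p 0.894).

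WEE1, the kinase that inhibits CDK1, had 88.5, 89.6 and 85.7 CPM in the controls and 78.6, 76.5 and 76.7 CPM with ppk1. Those groups did not overlap, yet the log2 fold change of -0.19 (SE 0.07) had an edgeR adjusted p of 0.107. Without replicate D it passed, at -0.22 with an edgeR adjusted p of 0.0455 (0.0455 to 0.735 over 11 alternatives). The other phosphatases of CDK1 had log2 fold changes of -0.09 (CDC25A) and -0.14 (CDC25C), with edgeR adjusted p of 0.455 and 0.286. Without replicate D these phosphatases had -0.11 and -0.07.

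None of the mitotic kinases PLK1, AURKA and AURKB was called by edgeR or DESeq2, and 0 had an unadjusted p below 0.05. PLK1, the polo-like kinase of centrosomes and kinetochores, was at 130, 132 and 128 CPM in the controls and 119, 153 and 129 CPM with ppk1. The ppk1 libraries B and C were the lowest and the highest of the 6. AURKA, the Aurora kinase of spindle poles, was at 85.7, 89.4 and 98.9 against 83.4, 90.2 and 85.2 CPM. AURKB, the Aurora kinase of the chromosomal passenger complex, was at 139, 136 and 133 against 140, 151 and 138 CPM. Both genes overlapped between the groups. Fitted log2 changes of the kinases were 0.03, -0.08 and 0.07 in that order, with edgeR adjusted p from 0.559 to 0.84.

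Of 9 spindle checkpoint and APC/C genes, 0 were called and 2 had an unadjusted p below 0.05 in edgeR's test. The shares of all tested genes were 9.08% and 23.8%, so these counts are no result about this role. BUB1, a checkpoint kinase, was at 149, 155 and 178 CPM in the controls and 141, 149 and 148 CPM with ppk1 (log2 fold change -0.14, edgeR adjusted p 0.257). The ppk1 values were lower in each pair and did not overlap the controls. Without replicate D the log2 fold change of BUB1 was -0.10. CDC20, the activator of the APC/C that the checkpoint blocks, was at 133, 133 and 138 against 127, 159 and 134 CPM, with its highest value in ppk1 library C. The genes with the smallest p were picked out after their values were seen. They were ESPL1, the separase that cleaves cohesin, with a log2 fold change of 0.22 (edgeR adjusted p 0.0507), and TTK, the kinase that starts checkpoint signalling, with -0.21 (0.0835). ESPL1 was at 131, 141 and 122 CPM in the controls and 143, 167 and 148 CPM with ppk1, without overlap. For TTK the difference of -0.45 in pair D was far larger than those in B and C (0.02 and -0.20). TTK was called without replicate B (-0.32, edgeR adjusted p 0.00592, in a range of 0.00592 to 0.561 over the alternatives), and without replicate D it had -0.11 (edgeR adjusted p 0.393). BUB1B, BUB3 and MAD2L1, further checkpoint proteins, PTTG1, the separase inhibitor securin, and UBE2C, an APC/C ubiquitin-conjugating enzyme, had log2 fold changes between -0.09 and 0.08.

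Centromere and kinetochore genes gave 0 calls among 8 with edgeR and with DESeq2, with a median log2 fold change of -0.10. In edgeR's test 2 had an unadjusted p below 0.05, against 23.8% of all tested genes. NDC80, a microtubule-binding subunit of the outer kinetochore, was at 43.8, 46.8 and 60.9 CPM in the controls and 43.6, 41.9 and 48.9 CPM with ppk1. CENPA, the histone H3 variant that marks centromeres, was at 26.2, 29.3 and 28.2 against 26.0, 24.9 and 25.8 CPM. NDC80 overlapped between groups, and its high value was again in control D, whereas CENPA did not overlap. Their log2 fold changes were -0.16 and -0.12 (edgeR adjusted p 0.189 and 0.369), and that of NDC80 was -0.10 without replicate D. The 4 subunits of the NDC80 complex did not share a sign: NUF2 had -0.16, while SPC24 and SPC25 had 0.13 and 0.09. Without replicate D, NUF2, SPC24 and SPC25 had -0.09, 0.07 and 0.16. CENPE, a kinetochore motor, CENPF, a large kinetochore protein, and KNTC1, which recruits dynein, ran from -0.11 to -0.04. Without replicate D, CENPE, CENPF and KNTC1 had -0.02, 0.01 and -0.08. In the chromosomal passenger complex, which corrects faulty attachments, 0 of 3 were called by edgeR or DESeq2, and 0 had an unadjusted p below 0.05. BIRC5 (survivin) was at 177, 178 and 193 CPM in the controls and 169, 192 and 171 CPM with ppk1, a log2 fold change of -0.04. INCENP and CDCA8 had -0.03 and 0.05. INCENP differed in sign between pairs, from -0.31 in B to 0.21 in D.

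The 7 spindle motors and microtubule proteins held both calls downward, HMMR and PRC1, where 5.04% of all tested genes were called lower. Calls this few are no result about this role. KIF11, the motor that pushes spindle poles apart, was at 156, 163 and 176 CPM in the controls and 153, 169 and 160 CPM with ppk1, a log2 fold change of -0.04 with overlap. KIF20A and KIF23, motors of cytokinesis, KIF2C, which depolymerises microtubules, and TPX2, an activator of AURKA, ran from -0.11 to 0.04. Without replicate D, KIF20A, KIF23, KIF2C and TPX2 had 0.04, -0.05, 0.06 and -0.07. All 7 genes of this role had their highest level in empty vector library D.

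Condensin, topoisomerase and chromosome surface genes gave 0 calls among 7 with edgeR and with DESeq2. In edgeR's test 1 had an unadjusted p below 0.05, against 23.8% of all tested genes. TOP2A, the topoisomerase that untangles chromosomes, was at 560, 593 and 663 CPM in the controls and 584, 574 and 583 CPM with ppk1. NCAPD2, a condensin subunit, was at 281, 280 and 267 against 268, 289 and 258 CPM. MKI67, the Ki-67 protein that coats mitotic chromosomes, was at 428, 440 and 489 against 415, 421 and 423 CPM. Only MKI67 of these was separated between groups, by a small margin. The log2 fold changes were -0.06, -0.02 and -0.11, with edgeR adjusted p from 0.413 to 0.876. NCAPG, another condensin subunit, picked out after its values were seen, had -0.21 (edgeR adjusted p 0.0617) and was called with upper-quartile scaling (0.0435) and without replicate B (0.0215), within a range of 0.0215 to 0.542 over the alternatives. Without replicate D, NCAPG had -0.16, MKI67 -0.07 and TOP2A -0.01, with no call. The remaining NCAPH, SMC2 and SMC4 ran from -0.09 to 0.09.

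Of the cytokinesis genes, 0 of 3 were called by edgeR or DESeq2, and 0 had an unadjusted p below 0.05. ANLN (anillin), a scaffold of the contractile ring, was at 128, 141 and 173 CPM in the controls and 135, 138 and 137 CPM with ppk1, so the 3 ppk1 values lay inside the range of the controls. Its log2 fold change was -0.09 (0.01 without replicate D), and those of ECT2 and RACGAP1, which activate RhoA at the furrow, were -0.07 and -0.14. Without replicate D, ECT2 and RACGAP1 had 0.01 and -0.08. The SD of ANLN was 22.9 CPM among the controls and 1.53 CPM with ppk1.

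Both transcription factors had fitted changes above 0, and neither was called. FOXM1, an activator of G2/M genes, was at 162, 159 and 147 CPM in the controls and 165, 200 and 165 CPM with ppk1. The groups did not overlap, and the highest value was in ppk1 library C. Its log2 fold change was 0.18 (SE 0.07, edgeR adjusted p 0.133), and it passed without replicate B (0.25, edgeR adjusted p 0.045, in a range of 0.045 to 0.877 over the alternatives). MYBL2, the partner of MuvB in S phase, was at 255, 244 and 230 against 243, 275 and 251 CPM, with overlap and a log2 fold change of 0.08.

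The direction of the members differed between the pairs. In pair D the ppk1 library was lower for 41 of the 50 genes, against 50.1% of all tested genes, with a median difference of -0.17 (log2 CPM) beside -0.001 over all tested genes. In pairs B and C it was lower for 22 and 23 genes (44% and 46%, against 48% and 47.1% of all tested genes), with medians of 0.01 in both. The fitted log2 fold change was below 0 for 36 genes with all libraries and for 25 without replicate D, where the median of the members was -0.0018. All ppk1 libraries lay below all controls for 10 genes (20%, against 12.6% of all tested genes) and above them for 5 (10%, against 13%). The direction was downward in all 3 pairs for 12 genes (24%) and upward for 6 (12%). Of all tested genes, 43.8% had 1 direction in all 3 pairs. That share was not split by direction, so the lean of the members has no background here.

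**Figure D3:**
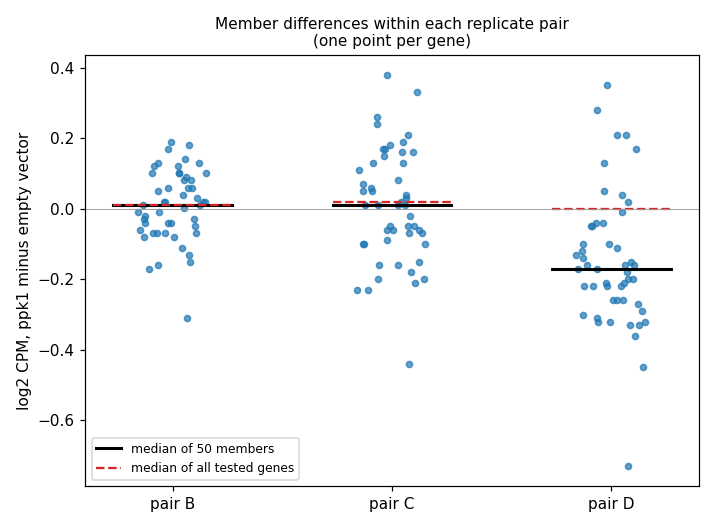
Difference in log2 CPM between the ppk1 and the empty vector library (vertical axis) in pairs B, C and D, 1 point per gene for the 50 genes; black bars are their medians and dashed red bars the medians of all tested genes. The medians of the members are 0.01, 0.01 and -0.17, and the lowest point, -0.73 in pair D, is HMMR.

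Base composition moved with these differences. Across the 50 genes, which share the same libraries, the difference in a pair had a Pearson correlation with the GC content of the longest GENCODE release 29 transcript of -0.24 in B, 0.66 in C and 0.75 in D, and -0.29, 0.65 and 0.76 without HMMR. Over all 19463 tested genes with a GC value these were -0.10, 0.09 and 0.31. Of the 25 genes below the members' median GC of 44.1%, empty vector D was the highest library for 24, and of the 25 at or above it for 10. The median log2 fold changes of the 25 and 25 genes were -0.09 and -0.01. When the model held GC and length offsets, they were -0.03 and 0.02, and 28 of the 50 genes were below 0 in place of 36. HMMR, PRC1 and CDC25B kept their calls with these offsets, and ESPL1 was called as well (0.19, edgeR adjusted p 0.015, in a range of 0.015 to 0.578 over the alternatives), while 16.5% of all genes were called. The part of base composition in the low values of pair D was not tested beyond this.

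**Figure D4:**
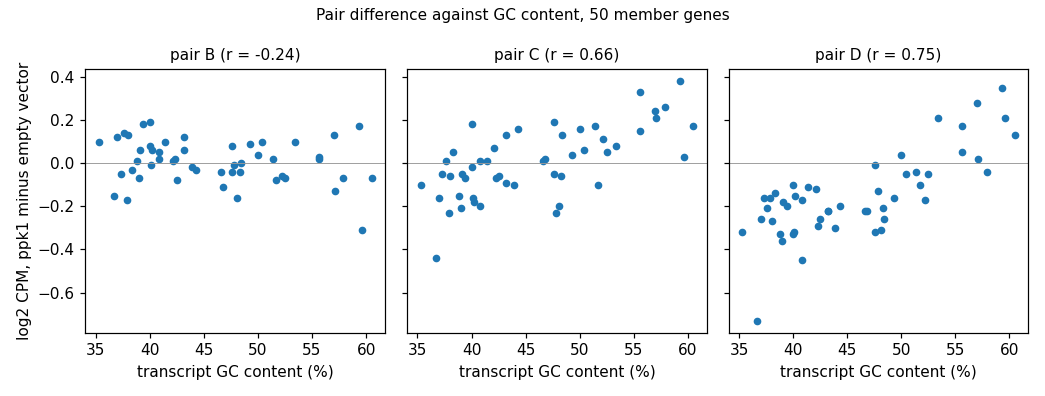
Difference in log2 CPM within each pair (vertical axis, ppk1 minus empty vector) against transcript GC content in percent (horizontal axis) for the 50 genes, 1 panel per pair with its Pearson r. The points rise with GC in pairs C and D (0.66 and 0.75) and not in pair B (-0.24).

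Other genes of division were taken from 6 lists with 160 genes, all tested. Of these, 4 were called higher and 5 lower, where 9.08% of all tested genes were called (4.04% higher and 5.04% lower). The count of 9 is below that background and is no result about these lists. Their median log2 fold change was 0.0029. KIF18A, a motor that limits chromosome movement at metaphase, was the largest fall. It was at 40.0, 44.2 and 58.6 CPM in the controls and 34.8, 33.8 and 34.6 CPM with ppk1. The fitted value was -0.45 on the log2 scale (SE 0.08), at 1.3e-04 for the edgeR adjusted p. As for HMMR, the control of replicate D was the highest library, and no ppk1 value reached the controls. Without replicate D, KIF18A had -0.31 and kept its call (edgeR adjusted p 0.00371, in a range of 6.1e-08 to 0.0533 over the alternatives). DEPDC1 fell by 0.24 on the log2 scale (edgeR adjusted p 0.0377) and SAPCD2, a protein of spindle orientation, rose by 0.27 (0.0189), so 3 of 29 other spindle and cytokinesis genes were called. Both calls were lost without replicate D, where DEPDC1 had -0.16 (edgeR adjusted p 0.145, in a range of 0.0053 to 0.446 over the alternatives) and SAPCD2 0.17 (0.17, in a range of 5.2e-04 to 0.467). DESeq2 called neither gene (adjusted p 0.0711 and 0.0686), SAPCD2 also lost its call with upper-quartile scaling (edgeR adjusted p 0.0604), and its groups overlapped.

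Among 32 other kinetochore and centromere genes 1 was called, where 9.08% of all tested genes were. That count is no result about the list. CENPC, which links centromeric chromatin to the kinetochore, was at 42.8, 44.5 and 53.2 CPM in the controls and 38.8, 33.7 and 38.0 CPM with ppk1 (log2 fold change -0.34, edgeR adjusted p 0.0024), and it had -0.29 and kept its call without replicate D (0.00843, in a range of 6.4e-05 to 0.222). None of 15 other condensin and cohesin genes was called (1 at an unadjusted p below 0.05 in edgeR's test, against 23.8% of all tested genes).

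In the group of APC/C and other entry and exit regulators, 2 of 26 were called, where 9.08% of all tested genes were. That count is no result about the group. MASTL, the Greatwall kinase, was at 62.9, 57.1 and 66.1 CPM in the controls and 50.6, 48.4 and 53.6 CPM with ppk1 (-0.29, edgeR adjusted p 0.00935). Its substrate ENSA, which inhibits the phosphatase PP2A once phosphorylated, was at 195, 205 and 224 against 232, 254 and 250 CPM (0.24, edgeR adjusted p 0.0304). The groups overlapped for neither gene. ENSA lost its call without replicate B (edgeR adjusted p 0.0772, in a range of 3.7e-04 to 0.581 over the alternatives). Both calls were lost without the block (edgeR adjusted p 0.0755 for MASTL and 0.123 for ENSA) and without replicate C (0.218 and 0.581).

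RBL1, the pocket protein p107 of the repressive DREAM complex, was the single call among 16 MuvB, DREAM and NF-Y factors (9.08% of all tested genes were called). It was at 50.4, 52.3 and 53.3 CPM in the controls and 41.7, 44.3 and 41.4 CPM with ppk1 (-0.29, edgeR adjusted p 0.00791), and was also called without the block (0.0463, in a range of 0.00451 to 0.203 over the alternatives). CDKN1A (p21), which halts the cycle, belongs to that list and was not called. Of 42 G1/S and replication genes, CCND3, a D-type cyclin (0.33, edgeR adjusted p 0.0025), and RRM2, a subunit of ribonucleotide reductase (0.29, 0.00733), were called higher and 0 lower. Of all tested genes, 4.04% were called higher and 5.04% lower, so this count is no result about the list. The fitted change was below 0 for 21 of the 42. Without the block, 2 of the 9 genes kept a call, RBL1 and CCND3 (edgeR adjusted p 0.0497, 1.8e-04 to 0.186 over the alternatives), and without replicate C only KIF18A did (edgeR adjusted p 0.00711). Empty vector D was the highest library for 22 of the 32 kinetochore and centromere genes, 18 of the 29 spindle and cytokinesis genes and 14 of the 42 G1/S and replication genes. It was also highest for 10 of the 15 condensin and cohesin genes and 12 of the 26 APC/C and other regulators. For the MuvB, DREAM and NF-Y factors the count was 9 of 16, and over all tested genes the share was 26.5%.

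Library totals ran from 40851783 to 67122986 counts, and a member had between 1079 and 39024 counts per library. Of the HEK293 line genes looked at, 8 of 8 were detected in all 6 libraries, VIM at 478 to 538 CPM and PAX2 at 2.55 to 3.64 CPM. Their detection does not by itself identify the line. COL1A1, listed as a marker of other cell types, was at 15.4 to 20.6 CPM, beside 16.25 to 20.7 CPM for the line gene KRT8. Of the 8 line genes, 3 were called between the groups, where 9.08% of all tested genes were. They were NEFL (-0.29, edgeR adjusted p 0.00793), KRT18 (0.28, 0.0113) and INA (0.25, 0.0295). Of 12 markers of other cell types, KRT14 was at 0 counts in all libraries, and CD3E and KRT5 had 1 count in all. Their summed level was 20.3 to 24.8 CPM in the controls and 23.8 to 24.1 CPM with ppk1, most of it COL1A1. ALB was the only marker of that list called, from 0.50 to 0.83 CPM down to 0.22 to 0.27 CPM, with 123 counts over all libraries.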

How the data were processed

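Poly(A)-selected RNA of 6 libraries was sequenced after a directional preparation, per the labels' protocols. The authors deposited 1 table of raw counts per Ensembl gene, used as deposited. STAR and HTSeq are among the tools in the submitters' processing notes, with no stated role. The genome build, the annotation and the strand setting of the counting are not given in the sources used here, so genes that overlap others are uncertain (30 of the 50 members overlap no exon of another gene in GENCODE release 29). Of the value columns, 0 were left unmatched.

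The whole table was filtered with filterByExpr (minimum count 10), scaled by TMM and tested with edgeR 4.0.16 (glmQLFit, glmQLFTest) in R 4.3.3, with the replicate letter as a block, since the series states that libraries of a letter are matched. P-values were adjusted by Benjamini-Hochberg over 19574 genes, with a threshold of 0.05. As a check of the matching, deviations from group means correlated at 0.109, 0.135 and 0.0476 for the letters B, C and D over genes, against -0.12 to -0.00506 between letters. Deviations from a group mean cancel out, so positive values within letters come with negative ones between letters. The contrast is thus partly built in, and the values within letters were small. SE is the absolute fold change divided by the root of F, and a prior count of 2 went into log2 CPM. The BCV was 6.82% with 47.5 prior degrees of freedom, so the small SEs lean on the dispersion shared across genes.

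The members and lists were chosen with earlier results of these data known. By a fixed rule, values of every library are printed for called members and for 19 representatives of the roles, and up to 5 called genes of each other list are named. Alternatives were no block, RLE and upper-quartile scaling, other filters, DESeq2 1.42.0, thinning, GC and length offsets (smooth terms fitted with mgcv) and leaving out each pair.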

Additional observations from a re-analysis of the deposited data

How the results depend on the processing

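HMMR kept its direction under all 11 alternatives and lost its call only without the replicate block, while PRC1 and CDC25B also kept their directions but lost calls as given above. Of 550 values of the members under the alternatives, 506 kept direction and call, 7 lost and 7 gained a call, and 30 values of 18 genes, each with a value over all libraries between -0.09 and 0.05 and no call, changed sign. The cause was not tested. With GC and length offsets and the block, the sign changed for CCNA2 (0.04), CCNB2 (0.02), PLK1 (-0.002), BUB3 (0.07), MAD2L1 (0.04), PTTG1 (0.02), CENPF (0.05), KIF11 (0.03), TOP2A (0.01) and SMC2 (0.05). When a pair was left out, values ran across 0 for CCNA2 (-0.05 to 0.02), CCNB1 (-0.05 to 0.10), CCNB2 (-0.12 to 0.04), PLK1 (-0.06 to 0.11), BUB3 (-0.05 to 0.03), MAD2L1 (-0.14 to 0.04), CDC20 (-0.05 to 0.11), PTTG1 (-0.06 to 0.05), CENPF (-0.08 to 0.01), BIRC5 (-0.12 to 0.0031), INCENP (-0.16 to 0.11), CDCA8 (-0.01 to 0.08), KIF20A (-0.13 to 0.04), SMC2 (-0.10 to 0.06), ANLN (-0.18 to 0.01) and ECT2 (-0.17 to 0.01). CCNB1 also did with upper-quartile scaling (-0.01) and thinning (-9.5e-05), and BUB3 with no filter (0.00046).

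Called members numbered 0 without the replicate block (6 at an unadjusted p below 0.05), and from 1 to 6 when a pair was left out. They numbered 3 or 4 under the other 7 alternatives. All called genes numbered 470 without the replicate block, 755 with DESeq2, 3222 with GC and length offsets, and from 406 to 2435 when a pair was left out, in place of 1777. Called genes of the 6 other lists numbered 2 without the replicate block, 28 with GC and length offsets, and from 1 to 14 when a pair was left out, in place of 9. The median log2 fold change of the members ran from -0.10 (without replicate B) to -0.0018 (without replicate D), and the log2 ratio of their summed level from -0.12 (scaled by library totals) to -0.00029 (without replicate D). With 3 pairs, standard errors of 0.07 to 0.08 on the log2 scale limit what could be detected.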

Other observations

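Per kilobase of the longest annotated transcript, the mean level of members in the empty vector libraries was highest for AURKB (108 CPM per kilobase), TOP2A (105) and SMC4 (102), and lowest for CDC25C (14.9), WEE1 (16.9) and SPC24 (17.7). The transcript forms in use were not measured, so this order depends on the annotated lengths. Among the 40 members with a promoter window, the 29 with the CHR letters in at least 1 window had a median log2 fold change of -0.07 and a median difference of -0.20 in pair D. The 11 without them had 0.01 and -0.10. GC content, which correlated with the pair D difference across the 50 members (Pearson 0.75), was not held equal between these sets. Whether the letters bear on the change was not tested, and absence of the exact letters is not absence of the element. Genes with several windows have more chances of a match.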
